A study of Mus musculus with 14 samples.

Results

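The comparison described here set the hematopoietic stem and progenitor cells (HSPC) of 2 mice labelled PyMT against those of 2 mice labelled WT (wild-type), over all genes of the deposited HSPC count table. All cells of the table were used: 14842 cells, of which 5632 came from the WT mice and 9210 from the PyMT mice, in 4 of the 14 samples of the series. The study asked how bone marrow cells differ when a breast tumour grows elsewhere in the body. PyMT names mice in which the polyoma middle T oncogene gives rise to mammary tumours, and WT names mice without it. Both genotypes were profiled from bone marrow by droplet 3' single-cell RNA sequencing, and neither received a treatment that the labels name. The sources used here do not state the promoter of the oncogene, the age and strain of the mice, the tumour load or the gates of the cell sort. A PyMT prefix stands in the names of all 4 libraries, but 2 of them are WT by their genotype label and by the deposited cell metadata, which were followed. Each library is from its own mouse by the metadata, so the mouse is the replicate.

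HSPC are the rare marrow cells from which all blood cells descend, and they express low levels of genes of several lineages before they commit to one. Cytokines from the marrow niche and from distant tissues act on them largely through JAK kinases and STAT transcription factors, and SOCS proteins, induced by the same pathway, feed back to switch it off. Platelet and red cell production starts from progenitors that depend on GATA factors, whereas granulocytes and monocytes start from progenitors governed by C/EBP factors and PU.1.

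UMIs (unique molecular identifiers, 1 per captured RNA molecule) were summed over the cells of each mouse, which gave 16365550 to 28570481 UMIs per mouse. PyMT mouse 2 was the shallowest per cell, with a median of 4257 UMIs per cell against 6643.5 and 6767.5 in the WT mice and 7149 in PyMT mouse 1. The libraries shared 8 to 23 cell barcodes per pair, 93 barcodes in all. WT mouse 2 and PyMT mouse 1 stood apart in a few genes: 31 genes were more than 2-fold lower in WT mouse 2 than in each other mouse, among them Elane, Mpo and Hp, and 10 were more than 2-fold higher in PyMT mouse 1, among them Hspa1a and Lcn2. None of these genes passed the test below. As a check of the label, Kit and Cd34, which mark HSPC, were detected at 72.6 to 138 and 651 to 728 CPM (UMIs scaled to a common library total with TMM factors). Of the markers of other cells, 4 of 10 for T or NK cells had a row among the 11992 genes used here and summed to 579.7 to 709.6 CPM. Nkg7 among them is also a marker of granulocyte-monocyte progenitors here, so this sum does not measure T or NK cells alone. For B cells 2 of 9 summed to 70.4 to 88.7 CPM, and for stromal cells 2 of 9 to 4.77 to 12 CPM. Endothelial markers (5 of 8) summed to 361 to 428 CPM, and dendritic cell markers (6 of 10) to 460 to 552 CPM. Mammary tumour or epithelial markers (4 of 10) summed to 117 to 134 CPM. Flt3 among the dendritic and Lcn2 among the mammary markers also mark other classes here. Sums of markers, here and below, were scaled to the library total without TMM factors. Xist stood between 901 and 1290.0 CPM in all 4 mice.

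Of 11759 genes tested, 100 were higher (0.85%) and 65 lower (0.553%) in PyMT than in WT HSPC at a Benjamini-Hochberg adjusted p under 0.05 by edgeR's quasi-likelihood test, 1.4% in all. The higher genes held 7 members of a list of STAT3 targets and SOCS genes, among them Socs3, and 4 of an interferon list, among them Ifitm1. The lower genes held 10 members of a list of megakaryocyte and erythroid genes, among them Pf4, and 4 of a list of stem cell genes, among them Kit. The change was at least 2-fold in 21 of the higher and 20 of the lower genes, and the median over all genes tested was -0.01 on the log2 scale. In each of the 165 genes both PyMT mice lay on the same side of both WT mice, but that was so for 6583 of the genes tested (56.0%), so it sets no gene apart. In sums over a mixed population, fewer cells of a type and less RNA per cell cannot be told apart.

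**Figure D1:**
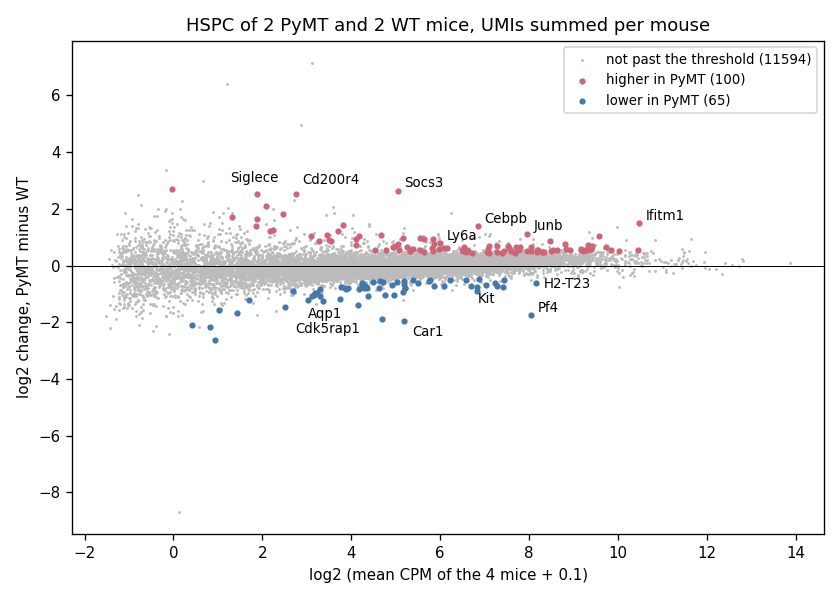
Log2 change between PyMT and WT HSPC (vertical axis) against mean level (horizontal axis, log2 of CPM plus 0.1) for 11759 genes, 1 point per gene. Red points are the 100 genes higher and blue points the 65 genes lower in PyMT mice past the threshold, and grey points did not pass. Socs3 and Ifitm1 lie high and Pf4 lies low among well-detected genes.

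The number of genes past the threshold moved with the scaling and with the mice. It was 34 higher and 52 lower with upper-quartile factors, and 13 higher and 30 lower when scaled by library size alone, which also shifted the median of all genes to -0.14. Without WT mouse 1 it was 347 and 206, without WT mouse 2 100 and 84, without PyMT mouse 1 716 and 390, and without PyMT mouse 2 1135 and 797. In G1 cells alone 1.71% and in S and G2M cells alone 1.11% of genes passed. In the 4 fits that left out a mouse, a lone mouse is assumed to vary like the mice of the other group. The direction of all 165 genes was kept in both rescaled fits and in the 4 fits without a mouse. Their choice largely fixed this. In each gene both PyMT mice lay on the same side of both WT mice, and the smallest log2 changes were 0.43 and -0.48. Of the 165 genes, 20 passed in all 18 alternatives run. They were Socs3, Socs1, Cebpb, Bcl3, Cd200r4, Siglece, Cox6a2, Tpm4, Nop16, Atp5o and Rsrp1 among the higher genes, and Pf4, Cdk5rap1, Kit, H2-T23, Plek, Dmwd, Ndrg1, Slc14a1 and Cd180 among the lower ones.

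Genes that answer to STAT3 and its relatives were the group with the most members higher. Of 19 tested members of a list of STAT3 targets and SOCS genes, 7 rose and none fell (1.4% of all genes passed), with a median log2 change of 0.53 against -0.01 over all genes. The median was 0.34 without WT mouse 1 and 0.35 without PyMT mouse 2. The list was written with earlier results of these data known, as all lists here were, so its count is a description. Socs3, the feedback inhibitor of the IL-6 and G-CSF receptors, stood at 10.4 and 7.60 CPM in the WT mice and at 61.6 and 51.9 CPM in the PyMT mice. The 2 groups lay far apart. The log2 change was 2.64 ± 0.16 (SE), a 6.22-fold rise, with an edgeR adjusted p of 0.000541. Socs1, which inhibits interferon and IL-4 signalling, rose from 7.12 and 8.41 to 17.3 and 18.7 CPM, by 1.22 ± 0.14 on the log2 scale. Bcl3, a nuclear partner of NF-kB proteins, rose from 12.6 and 10.5 to 23.2 and 25.0 CPM. Both PyMT mice were above both WT mice in each gene.

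Cebpb, the C/EBP factor that drives emergency production of granulocytes, stood at 71.0 and 56.7 CPM in the WT mice and at 188 and 144 CPM in the PyMT mice, a log2 change of 1.38 ± 0.16 (edgeR adjusted p = 0.0193). Junb, an AP-1 factor, rose from 147 and 167 to 290.5 and 391 CPM. Its call was lost when scaled by library size alone. The kinase gene Pim1, a classical STAT target, rose by 0.76 ± 0.11 and Il4ra, the alpha chain of the IL-4 receptor, by 0.77 ± 0.12 on the log2 scale. Stat3 itself stood at 110.3, 105, 100.2 and 121 CPM in WT mice 1 and 2 and PyMT mice 1 and 2, so the groups overlapped. Ccnd2, the D cyclin of the same list, was 333 and 375 CPM against 317 and 328 CPM and did not pass.

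With the same number of cells per cluster drawn from every mouse (2038 cells per mouse), all 7 of these genes again passed in the same direction, where 0.574% of all genes passed, as they did with clusters made without the 165 genes (1.63%). Their log2 changes with equal cells and the first clusters were 2.90 for Socs3, 1.31 for Socs1, 1.21 for Bcl3, 1.26 for Cebpb, 1.27 for Junb, 0.84 for Pim1 and 0.67 for Il4ra. With library size scaling 4 of the 7 passed, namely Socs3, Socs1, Bcl3 and Cebpb.

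The promoters of 2 of the higher genes and 2 of the lower genes are shown because they hold a motif of the factors named above. The windows run from 250 bases before to 50 bases after a RefSeq start site (GRCm38.p6, the mm10 build of the files), and capitals mark the motif on either strand. In Socs3 (chr11:117969317-117969616, minus strand) and Ifitm3 (chr7:141010695-141010994, minus strand) it is TTCNNNGAA, the core that STAT factors bind. It begins 154 bases before the start site of Socs3 and 13 bases after that of Ifitm3. In Pf4 (chr5:90772185-90772484, plus strand) and Epor (chr9:21963527-21963826, minus strand) it is AGATAA, the core that GATA factors bind, 36 bases after and 54 bases before the start site.
Socs3: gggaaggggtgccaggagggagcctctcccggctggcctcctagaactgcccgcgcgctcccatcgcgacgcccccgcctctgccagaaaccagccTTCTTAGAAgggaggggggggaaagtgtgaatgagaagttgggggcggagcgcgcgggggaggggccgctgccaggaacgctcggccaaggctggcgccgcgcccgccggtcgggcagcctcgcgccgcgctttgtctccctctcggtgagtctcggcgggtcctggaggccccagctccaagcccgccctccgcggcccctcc
Ifitm3: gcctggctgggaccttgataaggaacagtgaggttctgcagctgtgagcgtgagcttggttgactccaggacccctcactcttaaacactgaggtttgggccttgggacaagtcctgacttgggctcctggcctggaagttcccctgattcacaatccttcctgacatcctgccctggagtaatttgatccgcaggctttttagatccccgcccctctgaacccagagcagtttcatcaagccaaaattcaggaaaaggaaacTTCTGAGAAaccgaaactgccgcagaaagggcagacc
Pf4: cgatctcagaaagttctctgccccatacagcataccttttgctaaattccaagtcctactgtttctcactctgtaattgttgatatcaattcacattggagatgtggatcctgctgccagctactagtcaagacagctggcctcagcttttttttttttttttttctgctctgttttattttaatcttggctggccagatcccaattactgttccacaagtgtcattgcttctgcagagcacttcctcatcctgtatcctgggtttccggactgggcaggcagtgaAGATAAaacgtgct
Epor: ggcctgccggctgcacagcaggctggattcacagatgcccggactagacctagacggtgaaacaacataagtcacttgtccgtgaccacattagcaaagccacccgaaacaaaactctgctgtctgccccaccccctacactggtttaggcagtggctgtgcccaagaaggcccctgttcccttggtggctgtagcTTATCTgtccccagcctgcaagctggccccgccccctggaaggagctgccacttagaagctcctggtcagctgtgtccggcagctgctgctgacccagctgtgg

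Promoters were matched for 79 of the 100 higher and 55 of the 65 lower genes. TTCNNNGAA was present in 10 of the 79 higher genes (12.7%) and in 2 of the 55 lower ones (3.64%). It was present in 8.20% of the tested genes that matched, 9.55% of all 27025 genes with a promoter and 8.30% of all 32851 promoters. AGATAA was present in 10 of the 55 lower genes (18.2%) and in 9 of the 79 higher ones (11.4%). The share was 7.96% of the tested genes, 12.7% of all genes with a promoter and 11.2% of all promoters. A match is a string of letters in a window and was not tested as a binding site.

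Other single genes also rose. Cd200r4, a member of the CD200 receptor family, stood at 2.26 and 1.61 CPM in the WT mice and at 10.6 and 12.1 CPM in the PyMT mice, a log2 change of 2.52 ± 0.21 (edgeR adjusted p = 0.00158). Siglece, an inhibitory sialic acid receptor, was 1.07 and 1.04 against 7.51 and 4.63 CPM, with a log2 change of 2.52 ± 0.31. The groups were clearly separate in both genes, although the levels were low. Nlrp3, an inflammasome sensor, rose by 2.69 ± 0.45 on the log2 scale from levels under 0.3 CPM. Other higher genes were Cd14, a receptor for bacterial lipopolysaccharide, Ctss, a lysosomal protease, Cd68 and Slfn2. Cd68 and Ctss each rose by 0.97 ± 0.14. The summed level of 9 monocyte or macrophage markers was 90.6 and 52.6 CPM in the WT mice and 149 and 108 CPM in the PyMT mice. Its part in the rise of these genes was not tested. The macrophage complement genes C1qa and C1qc moved the other way, C1qa from 2.60 and 2.88 to 0.818 and 0.401 CPM.

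Of 41 tested members of the list of interferon-inducible genes 4 rose and none fell (0.85% and 0.553% of all genes). The median log2 change of the list was 0.24, or 0.04 without PyMT mouse 2. Ifitm1, a membrane protein that restricts virus entry, was among the most abundant genes past the threshold, at 873 and 619 CPM in the WT mice and at 2294 and 1927 CPM in the PyMT mice, a 2.83-fold rise. Its edgeR adjusted p was 0.0169 and rose to 0.235 without PyMT mouse 1 and to 0.135 without PyMT mouse 2. Ifitm3 rose from 869 and 843 to 1267 and 1188 CPM with an adjusted p of 0.04997, just inside the threshold, and Ifitm2 (1545 and 1434 against 1946 and 2113 CPM) did not pass. The Ifitm genes are related neighbours on chromosome 7, and the sources used here do not state how reads that fit several of them were counted. Igtp, an immunity-related GTPase, rose by 0.52 ± 0.10.

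Of 30 tested members of the list of megakaryocyte and erythroid genes 10 fell and none rose (0.553% and 0.85% of all genes). Below 0 lay 27 of them, and the median log2 change was -0.74. Pf4 (chr5:90772435-90773383), platelet factor 4, stood at 427 and 389 CPM in the WT mice and at 113 and 130.0 CPM in the PyMT mice. No other gene had a smaller p. Its log2 change was -1.75 ± 0.11, a 3.35-fold fall (edgeR adjusted p = 0.000307). Car1, the carbonic anhydrase of early erythroid cells, was 47.3 and 67.7 against 15.4 and 13.9 CPM, and Aqp1, the red cell water channel, was 23.7 and 27.4 against 11 and 8.53 CPM. In both the PyMT mice lay well below the WT mice.

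Itga2b, the integrin chain CD41 that marks the megakaryocyte lineage, fell from 159 and 128 to 80.2 and 88.6 CPM. Gp9, a chain of the von Willebrand factor receptor, fell from 49.9 and 44.4 to 26.0 and 28.0 CPM, and Zfpm1, the GATA1 cofactor FOG1, from 24.6 and 27.2 to 14.1 and 15.6 CPM. Epor, the erythropoietin receptor, was 9.11 and 7.43 against 4.39 and 4.45 CPM with an adjusted p of 0.04997. The master regulators themselves did not pass: Gata1 was 39.5 and 29.9 against 20.9 and 24.7 CPM (edgeR adjusted p = 0.0737), and Klf1 was 15.4 and 13.4 against 10.0 and 7.87 CPM (0.0656). Outside the list, Treml1, a receptor of platelet granules, fell by 1.24 ± 0.16 on the log2 scale, and Tspo2, an erythroid cholesterol transporter, by 2.62 ± 0.34. The 8 markers of mature megakaryocytes or platelets summed to 595 and 569 CPM in the WT mice and to 169 and 221 CPM in the PyMT mice. Pf4 is 1 of these 8 and made up most of their sum in every mouse, so the sum largely repeats it. Markers of maturing erythroid cells summed to 89.4 and 104 against 113 and 67.6 CPM. The part of such cells in the fall was not tested.

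Most of these calls were lost with equal cells per cluster. With equal cells per cluster, 2 of the 28 list members tested there passed in place of 10 of 30 (0.574% of all genes passed there). The median of the list was -0.20, or -0.28 where the cells were clustered without the 165 genes. Pf4 and Plek, a platelet substrate of protein kinase C, were the 2 genes that passed in both, with log2 changes of -1.09 and -0.59 in the first. Car1 was then at -0.39 (edgeR adjusted p = 0.184), Aqp1 at -0.49 (0.234), Itga2b at -0.22 (0.232), Gp9 at -0.31 (0.167), Zfpm1 at -0.45 (0.107) and Epor at -0.20 (0.62). The clusters of that fit were made with the called genes, and Pf4 and Car1 were among their leading genes. With clusters made without them Car1 was at -1.21 (edgeR adjusted p = 0.416), Aqp1 at -0.70 (0.0678) and Itga2b at -0.25 (0.146), and Tspo2 passed at -2.07 (0.0233), against -0.57 (0.483) in the first. Within single clusters Car1 was lower in 5 of the 5 where it was tested, by -2.54 to -0.84. Without PyMT mouse 1 or PyMT mouse 2 the adjusted p of Car1 was 0.194 and 0.169.

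**Figure D2:**
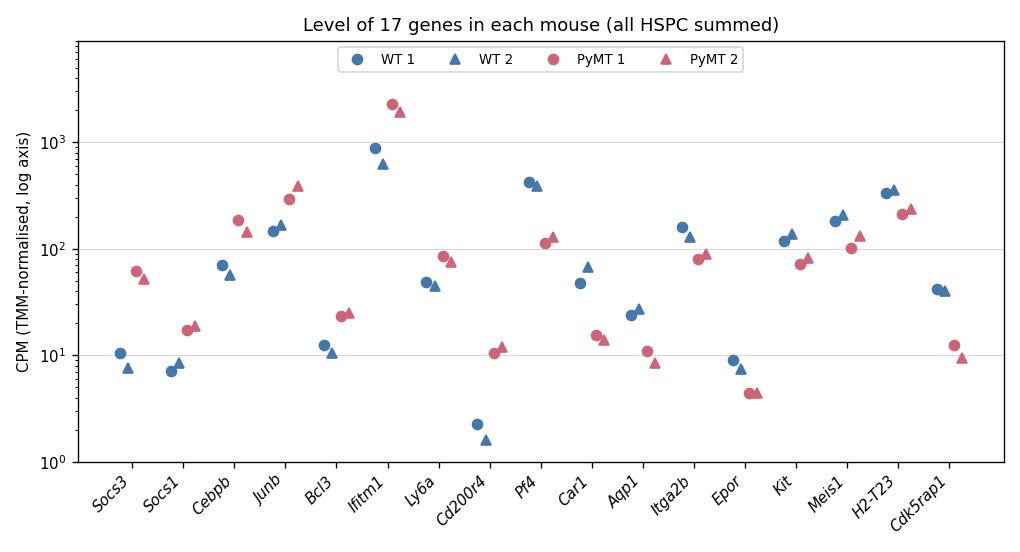
Level of 17 genes in each mouse, in TMM-normalised CPM on a log axis; blue marks WT and red marks PyMT mice, circles mouse 1 and triangles mouse 2 of each group. In every gene drawn both PyMT mice lie on 1 side of both WT mice, with Socs3 at 7.60 and 10.4 against 51.9 and 61.6 CPM and Pf4 at 389 and 427 against 113 and 130.0 CPM.

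Of 30 tested members of the stem cell list 4 fell and 1 rose (0.553% and 0.85% of all genes). Below 0 lay 29 of them, and the median log2 change was -0.37. It was -0.20 without PyMT mouse 1 and -0.12 with equal cells per cluster. Kit (chr5:75574987-75656722), the receptor for stem cell factor, fell from 119 and 138 CPM to 72.6 and 82.6 CPM, a log2 change of -0.73 ± 0.11 (edgeR adjusted p = 0.0233). It passed in all 18 alternatives. Meis1, a homeobox factor of stem cells, fell from 183 and 205 to 103 and 133 CPM, and Gata2 from 162 and 159.8 to 86.6 and 112 CPM. Angpt1, the ligand of the Tie2 receptor, fell from 133 and 161 to 68.1 and 91.1 CPM. With equal cells per cluster Meis1 was at -0.38 (edgeR adjusted p = 0.0782) and Gata2 at -0.25 (0.192). With equal cells and clusters made without the called genes, Meis1 passed at -0.45 (edgeR adjusted p = 0.0251) and Gata2 did not, at -0.33 (0.0611).

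Ly6a was the 1 stem cell gene that rose, from 48.7 and 44.5 to 86.4 and 75.1 CPM, a log2 change of 0.79 ± 0.11. It encodes Sca-1, which is used with Kit to sort mouse HSPC and is also interferon-inducible. Markers that divide stem cells from their progeny did not pass: Slamf1 (CD150) was 7.65 and 7.60 against 4.61 and 4.23 CPM, and Cd48 was 276 and 242 against 374 and 323 CPM. Procr, the stem cell receptor EPCR, was 21.8 and 22 against 18.1 and 23.6 CPM, and Cd34 was 714 and 728 against 651 and 722 CPM, with overlapping groups. The sort could set the levels of Ly6a and Kit, and the sources used here do not state its gates.

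Granulocyte and monocyte genes lay higher in the PyMT mice without passing the test. Of 28 tested members of this list none passed in either direction, 27 lay above 0 and the median log2 change was 0.71. At an unadjusted p under 0.05, 6 of the 28 were higher and none lower, against 12.2% and 10.2% of all genes tested. Mpo, myeloperoxidase, stood at 3059 and 1338 CPM in the WT mice and at 4641 and 3763 CPM in the PyMT mice (edgeR adjusted p = 0.36). Elane, neutrophil elastase, was 872 and 256 against 1789 and 1096 CPM (0.482), and Csf1r, the receptor for M-CSF, was 16.1 and 6.51 against 36.1 and 24.7 CPM (0.289). The WT mice differed from each other by more than 2-fold in all 3 genes. Without WT mouse 2 the median of the list was 0.32, whereas without WT mouse 1 it was 1.11. With equal cells per cluster it was 0.26, and 1 member passed, where 0.574% of all genes passed.

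The share of cells in the cluster led by Elane and Cebpe was higher in both PyMT mice. It was 7.10% and 3.62% of cells in the WT mice and 14.5% and 9.20% in the PyMT mice, a difference of 6.51 percentage points. The cluster led by Ly86 and F13a1, with the monocyte genes Irf8 and Csf1r among its leading genes, held 4.70% and 2.31% against 14.2% and 7.04% of cells. An exact two-sided permutation test over 4 mice gave p = 0.33 for each, the smallest it can give. Both PyMT mice lay on 1 side of both WT mice in most of the 13 clusters, so this sets neither cluster apart. The cluster led by Jchain and Ltb, for example, held 24.5% and 25.4% of WT against 14.6% and 21.7% of PyMT cells. When the cells were clustered without the 165 genes, a choice made after seeing the data, the cluster led by Elane held 6.81% and 1.72% against 18.9% and 9.25% of cells. The cluster led by Fcer1a and Gp1bb, a platelet glycoprotein gene, then held 6.87% and 6.43% against 3.58% and 3.85%, and that led by Prss34 and Car1 11.7% and 9.05% against 6.83% and 6.13%. At a finer clustering (resolution 1.0) the largest clusters divided by genotype, 1 of them holding 27.2% and 28.9% of WT against 1.44% and 1.05% of PyMT cells, so shares at that resolution were not compared.

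**Figure D3:**
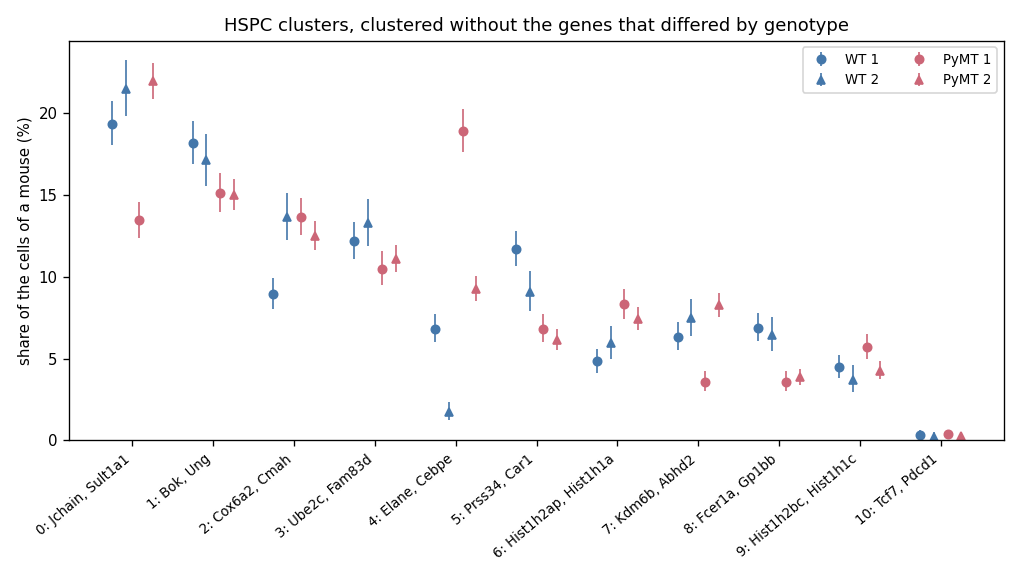
Share of the cells of each mouse (percent) in 11 clusters made without the 165 genes that differed by genotype, each named by its number and its first 2 leading genes; bars are 95% exact binomial intervals, which cover counting error only. Both PyMT mice lie above both WT mice in the cluster led by Elane (9.25% and 18.9% against 1.72% and 6.81%) and below them in that led by Fcer1a. The groups lie apart in several other clusters too.

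None of 22 tested lymphoid priming genes passed, 11 lay on each side of 0, and log2 changes ran from -2.18 to 3.38 with a median of 0.01. When a mouse was left out, the median of the list was -0.08 to 0.15. Dntt, the terminal transferase of early lymphoid cells, was 306 and 449 against 508 and 414 CPM, with overlapping groups. Within the 8 clusters fitted on their own (described last), Dntt was higher in 8 and passed in 2. Cd52, a surface glycoprotein among the markers of lymphoid-primed progenitors, rose from 217 and 196 to 359 and 288 CPM. Jchain, an antibody chain gene, was listed at 0.306, 0.634 and 0.112 CPM in 3 mice and at 27.6 CPM in PyMT mouse 2 alone. No member of the 13 tested basophil, mast cell and eosinophil genes passed, with Mcpt8 at 82.0 and 44.1 against 122 and 112 CPM and Cpa3 at 88.4 and 69.1 against 41.5 and 59.0 CPM. Of 13 mature neutrophil genes 1 rose, Ifitm6, from 1.99 and 1.09 to 8.37 and 5.17 CPM, while Lyz2 (495 and 419 against 492 and 496 CPM) did not pass.

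Few genes of energy supply, protein folding and ribosome assembly passed, and those that did rose. Over all genes 0.85% rose and 0.553% fell. Of 73 tested nuclear genes of the respiratory chain 3 rose and none fell, 70 lay above 0 and the median log2 change was 0.25. Atp5o, a subunit of ATP synthase, stood at 484 and 482 CPM in the WT mice and at 783 and 801 CPM in the PyMT mice, a log2 change of 0.71 ± 0.10. The electron carrier Cycs and the complex III subunit Uqcrq rose by 0.65 ± 0.11 and 0.56 ± 0.11. With equal cells per cluster neither passed, with Cycs at 0.39 (edgeR adjusted p = 0.0678) and Uqcrq at 0.37 (0.0834). With equal cells and clusters made without the called genes, both passed, at 0.42 (0.0324) and 0.38 (0.0455). Neither passed with library size alone. The 13 mitochondrially encoded genes gave no call, and their median log2 change was -0.08. Scaling by library size alone brought the median of the nuclear genes to 0.13 against -0.14 for all genes. Of 32 MYC target and ribosome biogenesis genes 3 rose, namely Nhp2, Srm and Rrp1b, by 0.49 to 0.55 on the log2 scale, and 31 lay above 0. Without WT mouse 2 the log2 changes of Nhp2, Srm and Rrp1b were 0.48, 0.49 and 0.42. None of the 3 passed with upper-quartile factors or with library size alone. With equal cells per cluster none of these 3 genes passed, and the median of the list was 0.12 in place of 0.25. With equal cells and clusters made without the called genes, Nhp2 (edgeR adjusted p = 0.0421) and Srm (0.0408) passed and Rrp1b (0.0652) did not. The median of the list was then 0.15.

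Of 25 tested genes of the unfolded protein response, Xbp1, its main transcription factor, and Pdia6, a disulfide isomerase of the endoplasmic reticulum, rose and none fell. Xbp1 was 116 and 92.4 against 170.4 and 166 CPM. The list had a median log2 change of 0.36. Of 15 heat shock genes Dnaja1 rose, from 579 and 485 to 834 and 773 CPM. Hspa1a, an inducible HSP70, was 0.115 CPM in each WT mouse, 32.3 CPM in PyMT mouse 1 and 1.57 CPM in PyMT mouse 2, and did not pass. Without PyMT mouse 1 the median of the heat shock list fell from 0.46 to 0.21, and with equal cells per cluster it was 0.26. Of 31 hypoxia and glycolysis genes the enolase gene Eno1 rose, from 437 and 484 to 696 and 696 CPM, while Ldha, lactate dehydrogenase A, at 1326 and 1245 against 2016 and 1444 CPM, did not pass. The median of that list was 0.28, or 0.11 without PyMT mouse 1 and 0.08 with equal cells per cluster.

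Of 14 tested MHC class I genes 2 fell and none rose (0.553% and 0.85% of all genes). H2-T23, the non-classical molecule Qa-1, fell from 330.4 and 359 to 211 and 236 CPM, a log2 change of -0.62 ± 0.10, and H2-Q7 fell from 182 and 247 to 129.5 and 126 CPM with an adjusted p of 0.04997. The classical gene H2-D1 was 2740.1 and 2673 against 2713 and 2848 CPM, and B2m, the shared light chain, was 4335 and 4425 against 4019 and 4027 CPM. Without PyMT mouse 1 or 2 the adjusted p of H2-Q7 was 0.433 and 0.380. Many class I genes are close relatives in sequence, so counts may be split among them. None of 10 class II genes passed.

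The remaining lists held few calls (1.4% of all genes passed). Of 27 AP-1 and immediate-early genes Junb rose, and Jun at 479 and 543 against 498 and 568 CPM did not pass. Bcl3 was the 1 gene to rise among 28 NF-kB and cytokine response genes, whose inhibitor gene Nfkbia was 115 and 129.9 against 137 and 135 CPM. Klf10, an early TGF-beta response gene, rose among 19 genes of that pathway. Cd9, a tetraspanin, fell among 19 homing and adhesion receptors, while Kit and Epor fell among 28 niche cytokine receptors. None of 31 sterol and fatty acid synthesis genes passed.

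Of 46 cell cycle genes Ccne2, cyclin E2, rose, from 32.1 and 27.5 to 49.3 and 43.5 CPM, and of 19 cell cycle inhibitors, D cyclins and Cdk6, Gadd45a, a stress-induced growth arrest gene, fell. Over all genes 1.4% passed. Of the 18 alternatives, Ccne2 passed in 10 and Gadd45a in 7. With equal cells per cluster Ccne2 was at 0.17 (edgeR adjusted p = 0.426) and Gadd45a at -0.55 (0.0616). With equal cells and clusters made without the called genes, Ccne2 was at 0.43 (0.0572), and Gadd45a passed at -0.53 (0.0455). The median of the cell cycle list was 0.07, or -0.06 when scaled by library size alone. The authors' phase calls placed 73.8% and 74.0% of WT and 73.9% and 75.8% of PyMT cells in G1, 6.90% and 6.29% against 8.11% and 6.78% in S, and 19.3% and 19.7% against 18% and 17.4% in G2M. G1 and S shares overlapped between the groups, and the exact permutation p was 0.33 for G2M, the smallest possible. Among cells with at least 2000 genes the G1 share of PyMT mouse 2 fell to 61.8%, and the difference in G2M turned from -1.79 to 3.44 percentage points.

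**Figure D4:**
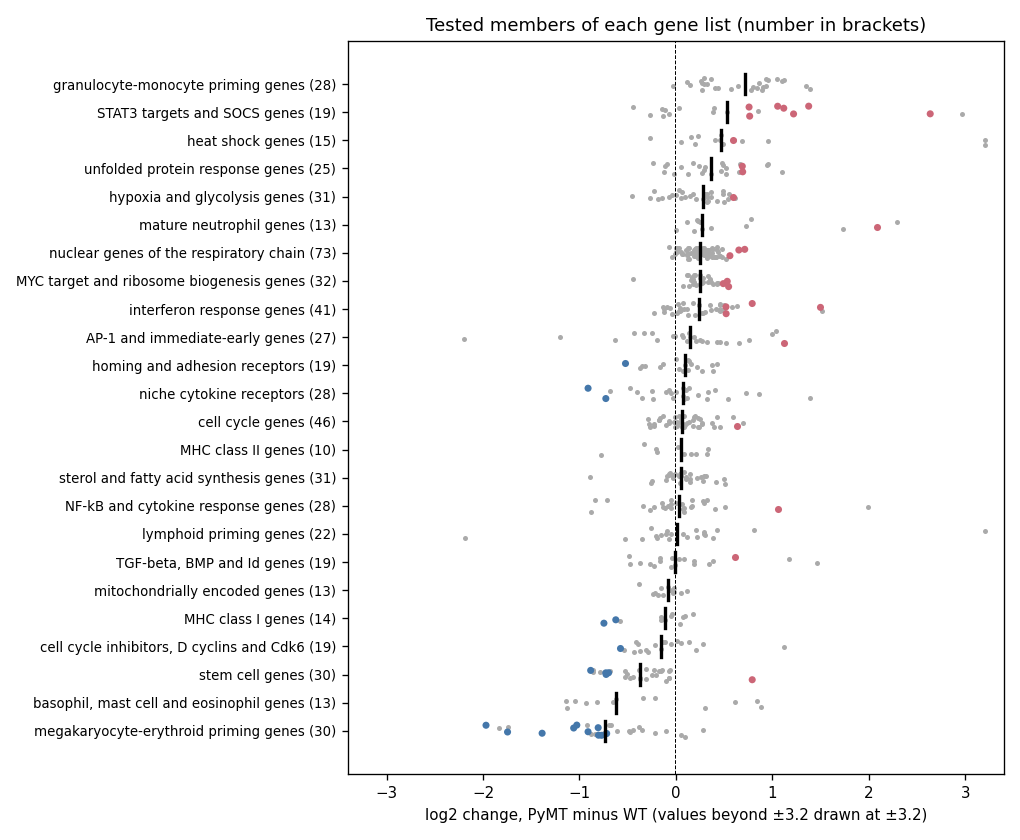
Log2 change of the tested members of 24 gene lists (1 point per gene; red and blue points passed the threshold, higher and lower) with the median of each list as a black bar and the median of all genes as a dashed line. The megakaryocyte-erythroid list has the lowest median (-0.74) and the granulocyte-monocyte list the highest (0.71), the latter with no gene past the threshold.

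Several genes with strong changes belonged to no list, as did 123 of the 165 genes. Cdk5rap1 (chr2:154222011-154373038), which modifies mitochondrial transfer RNA, fell from 41.8 and 39.7 to 12.5 and 9.36 CPM, a log2 change of -1.90 ± 0.14 (edgeR adjusted p = 0.00104). Dmwd fell from 7.84 and 8.53 to 2.71 and 3.21 CPM. Cox6a2, the muscle-type form of a cytochrome oxidase subunit, rose from 15.2 and 17.5 to 32.8 and 35.6 CPM, and Tpm4, a tropomyosin, from 39.0 and 39.3 to 80.7 and 67.8 CPM.

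The comparison was repeated within each of the 8 clusters that had at least 100 cells in every mouse, a choice made after seeing the data, with clusters made without the 165 genes. The clusters were led by Jchain, Bok, Cox6a2, Ube2c, Prss34, Hist1h2ap, Kdm6b and Fcer1a, and in that order 99, 43, 373, 94, 33, 46, 135 and 31 genes passed (1.0%, 0.43%, 3.91%, 0.943%, 0.373%, 0.495%, 1.61% and 0.36% of those tested). Of the 165 genes, 148 of 151, 147 of 152, 138 of 141, 150 of 154, 141 of 145, 142 of 143, 131 of 134 and 130 of 143 that were tested there kept their direction. Since the same mice and cells were used, this is no independent repeat. The cluster led by Elane had 38 cells in WT mouse 2 and was not fitted.

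Socs3, Cebpb, Junb and Cdk5rap1 passed in all 8 clusters, with log2 changes of 1.76 to 3.05 for Socs3, 0.89 to 1.49 for Cebpb, 0.75 to 1.55 for Junb and -2.37 to -1.50 for Cdk5rap1. Kit was lower in all 8 and passed in 6, as did Socs1, Atp5o and H2-T23 in their directions. Pf4 was lower in all 8, from -1.96 to -0.82, and passed in 4. Mfsd2b, a sphingosine 1-phosphate exporter of red cells and platelets, was lower in 4 of the 6 clusters where it was tested and passed in none. Mpo was higher in 7 of 8 and passed in 2. No interaction between genotype and cluster was fitted, so differences between clusters were not tested.

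**Figure D5:**
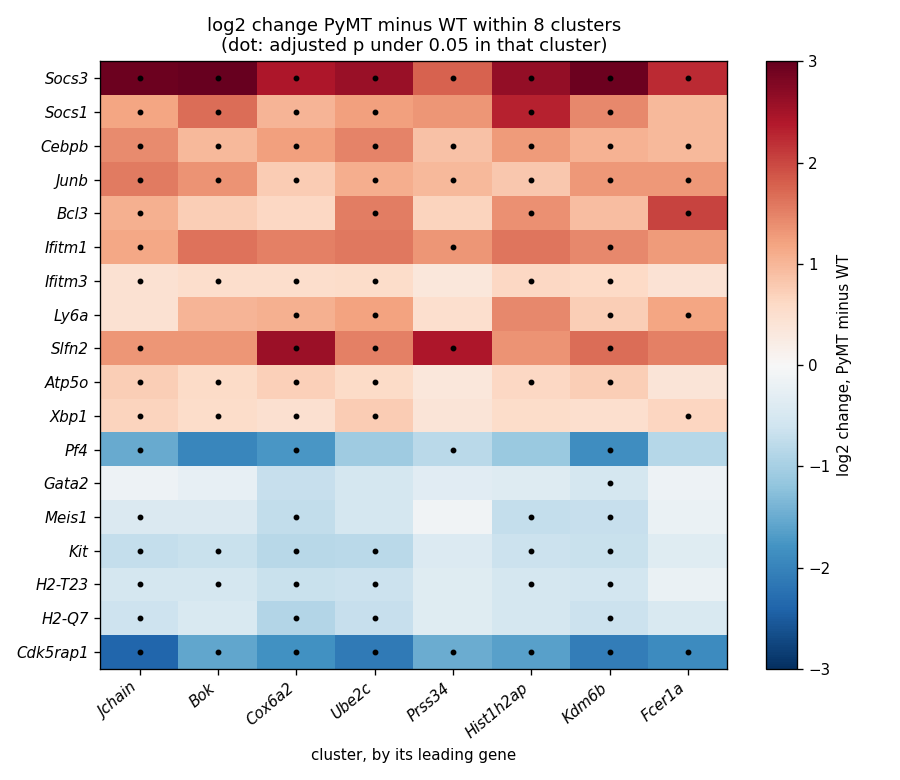
Log2 change between PyMT and WT cells of 18 genes (rows) within 8 clusters (columns, by leading gene), in red where higher and blue where lower in PyMT mice, with colours capped at ±3; a dot marks an adjusted p under 0.05 in that cluster. Socs3, Cebpb, Junb and Cdk5rap1 carry a dot in all 8 columns.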

How the data were processed

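The deposited HSPC table holds raw counts of UMIs per gene and cell, and the deposited metadata give the mouse, the genotype, the phase and the mitochondrial percent of each cell, as the authors filtered them (no cell above 4.50%). Per the submitters' processing notes, Cell Ranger 6.0.0, STAR 2.5.3a and mm10 were used; their roles are not stated. The HSPC table holds no row for a cytosolic ribosomal protein gene, so the totals and CPM leave this class out. Doublets were not removed. UMIs were summed per mouse and tested with edgeR 4.0.16 (R 4.3.3; TMM, filterByExpr, robust quasi-likelihood, Benjamini-Hochberg, threshold 0.05), and 233 of 11992 genes were left out by the filter. The SE is the log2 change divided by the root of the F statistic. The fit was also run on counts simulated from its own means and dispersions, with known changes added. It recovered 74% of genes changed 1.5-fold, and 5.56% of its calls were false. Such counts follow the assumptions of the fit, so this does not test whether they hold for these mice. Cells were clustered with scanpy 1.11.5 and leidenalg 0.10.2 (resolution 0.6 on 30 components of 2000 variable genes, with 20 neighbours), and again without the 74 variable genes among the 165. Alternatives were other scalings, filters and tools (DESeq2 1.42.0, limma 3.58.1), leaving out each mouse, thinning, single phases and equal cells per cluster. The fits within clusters, in S and G2M cells and of genotype by phase, and the second clustering, were added after seeing the data. Genes were named by rule: the largest changes (12 each way, mean of at least 50 UMIs) and smallest p (6 each way) among those that passed, up to 4 members of each list that passed and the 2 most abundant that did not, and gate genes; Stat3, Gata1, Klf1, Elane, Csf1r, Pim1, Il4ra, Angpt1, Itga2b, Gp9, Zfpm1, Plek, Procr, Nlrp3, Ctss, Cd68, C1qa, C1qc, Tspo2, Hspa1a, Jchain, Cd52, genes that passed in every alternative and leading genes of clusters were added after their values were seen. The members and lists were chosen with earlier results of these data known. Coordinates and promoters are from RefSeq GRCm38.p6.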

Additional observations from a re-analysis of the deposited data

Results flagged for a closer look

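For 4 of the genes named by rule the change between genotypes differed between cells called S or G2M and cells called G1, by the interaction term of an edgeR fit with the mouse as a block. The change was more positive in S and G2M cells by 0.37 on the log2 scale for Ccnd2, by 0.30 for Cebpb and by 0.22 for Srm, and more negative by -0.22 for Cdk6. Cebpb rose in both G1 and cycling cells, Srm passed in cycling cells only, which is no test of the difference by itself, and neither Ccnd2 nor Cdk6 passed in either. Of the genes named otherwise, Rsrp1 differed by 0.24, Cebpe by -0.94 and Jchain, detected mainly in PyMT mouse 2, by -4.50. Over all genes 55 of 11237 differed in this way, 4 of them among the 165 genes, and 982 had an unadjusted p under 0.05. The phase calls and the sums come from the same counts, and what the interaction reflects was not tested.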

How the results depend on the processing

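No paired analysis was possible because the genotype labels of the HSPC libraries carry no replicate numbers, and numbers given in accession order pair no mice. Leaving out each mouse in turn gave 100 to 1135 genes higher, 84 to 797 lower and 62 to 208 list members past the threshold, against 100, 65 and 42 with all mice. For genes higher, genes lower and list members, upper-quartile factors gave 34, 52 and 27, library size alone 13, 30 and 19, DESeq2 467, 161 and 128, a minimum of 50 UMIs in every mouse of a group 43, 39 and 26, a fit without robust weights 30, 28 and 22, and equal cells per cluster 49, 16 and 25. Cells thinned to 2000 UMIs gave 158 genes higher. Of the 30 genes named by size or p, 18 passed with library size alone, 13 with equal cells per cluster and 19 in S and G2M cells. Among cells with at least 2000 genes the PyMT minus WT difference in phase share was -6.16 percentage points for G1, 2.72 for S and 3.44 for G2M. Clustering without the 165 genes moved the difference in the share led by Elane from 6.51 to 9.82 points. The differences in G1 and G2M share thus changed sign. Of the 165 genes, 1 had the other direction in S and G2M cells, and library size alone turned list medians near 0, such as that of the lymphoid list from 0.01 to -0.12. The causes were not tested. No cluster was named as mature cells, so leaving such clusters out was not run. The number of mice, 2 a group, limits the precision.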
